A study of Homo sapiens with 3 samples.

Results

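CTCF, its paralog CTCFL and the genes of cohesin were examined in H9 cells, an established line of human embryonic stem cells. The members are 10 genes listed by name (CTCF, CTCFL, RAD21, SMC1A, SMC3, STAG1, STAG2, STAG3, NIPBL and WAPL), out of 58051 genes with deposited counts, and each name matched 1 Ensembl identifier in GENCODE release 44. Total RNA was sequenced after depletion of ribosomal RNA from 3 replicates of wild-type H9 cells that received no treatment and grew on vitronectin. There is 1 group and no other genotype, treatment or time, so levels are described and no difference between conditions was tested. Nothing in the labels says whether the replicates came from separate cultures, so that the spread between them may be technical.

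CTCF is a zinc finger protein that binds DNA and marks the ends of many chromatin loops. Cohesin is a ring of SMC1A, SMC3 and RAD21 with 1 STAG protein, which NIPBL loads onto chromatin and WAPL releases from it. Cohesin extrudes loops of chromatin until it meets CTCF, and it also holds sister chromatids together from replication until mitosis.

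The libraries held between 8655155 and 12024802 counts. Counts were divided by the summed exon length of each gene and scaled to the same total in every library, which gives transcript counts per length (TPM), the unit of the levels here. Genes below 0.01 TPM are called nonexpressed, and the other protein-coding genes were divided at 3.35 and 27.0 TPM into equal classes of low, medium and high expression. The pluripotency markers POU5F1, NANOG, SOX2, LIN28A and DNMT3B were all in the high class, with means from 275 to 2576 TPM. Of 14 markers of endoderm, mesoderm, neural cells, trophoblast and fibroblasts, 0 were in the high class, 5 were in the medium class and 9 in the low class. Their summed level was 74.5, 69.1 and 76.5 TPM in replicates 1, 2 and 3, and the fibroblast gene COL1A2 was the highest of them, at 25.6 ± 1.67 TPM (SD, n = 3). The other fibroblast genes did not share this level, as COL1A1 had 14.6 ± 1.43 TPM and DCN had 0.0985 ± 0.00830 TPM (SD, n = 3). The part of such cells in the levels below was not tested, and in bulk RNA fewer cells with a transcript cannot be told apart from less transcript per cell.

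The closest stretches of the coding sequences show how far a member and its paralog differ there. Untranslated parts were not compared, and how reads were assigned between paralogs was not tested. The coding sequence of CTCF aligned with that of CTCFL over 894 bases, 40.9% of that of CTCF. Identity there was 72.0%, with no identical run above 14 bases. For STAG1 and STAG2 the alignment covered 3463 bases with 74.8% identity, and the longest identical run was 21 bases. The windows below are the 60 bases within 1 exon of each gene that matched best (GRCh38, coding strand, 5′ to 3′), and capitals mark the bases that differ between the paralogs. The CTCF window lies in exon 8 of the canonical transcript (chromosome 16, 67626598 to 67626657, plus strand), and the CTCFL window also in exon 8 (chromosome 20, 57512650 to 57512709, minus strand). The STAG1 window lies in exon 10 (chromosome 3, 136477304 to 136477363, minus strand) and the STAG2 window in exon 11 (chromosome X, 124050235 to 124050294, plus strand).
CTCF: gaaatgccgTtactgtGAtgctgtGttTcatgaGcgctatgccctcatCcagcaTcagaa
CTCFL: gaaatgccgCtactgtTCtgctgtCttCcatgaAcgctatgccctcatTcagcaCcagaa
STAG1: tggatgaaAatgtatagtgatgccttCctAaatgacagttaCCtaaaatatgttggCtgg
STAG2: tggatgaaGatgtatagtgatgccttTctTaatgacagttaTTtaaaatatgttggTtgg
CTCF and CTCFL differed at 8 of the 60 bases and STAG1 and STAG2 at 6. Even in the most similar windows of this length that aligned without a gap within 1 exon of each gene, both pairs thus differ at several positions. Windows across exon junctions or outside the alignment were not compared.

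Of the 10 genes, 8 were in the high class of expression, STAG3 was in the medium class and CTCFL in the low class. Each gene had the same class in all 3 replicates. The high class holds 28.8% of the 19629 protein-coding genes, by construction from the threshold and the quantiles. The median over the 10 members was 67.2 TPM and that over protein-coding genes 7.10 TPM. By exon length the 8 genes in the high class lay between the 80.7th and the 92.6th percentile of protein-coding genes, not at the top of the distribution. The class boundary itself limits how low these percentiles can be. With the canonical transcript as length their means ran from 34.8 TPM for STAG1 to 244 TPM for RAD21.

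**Figure D1:**
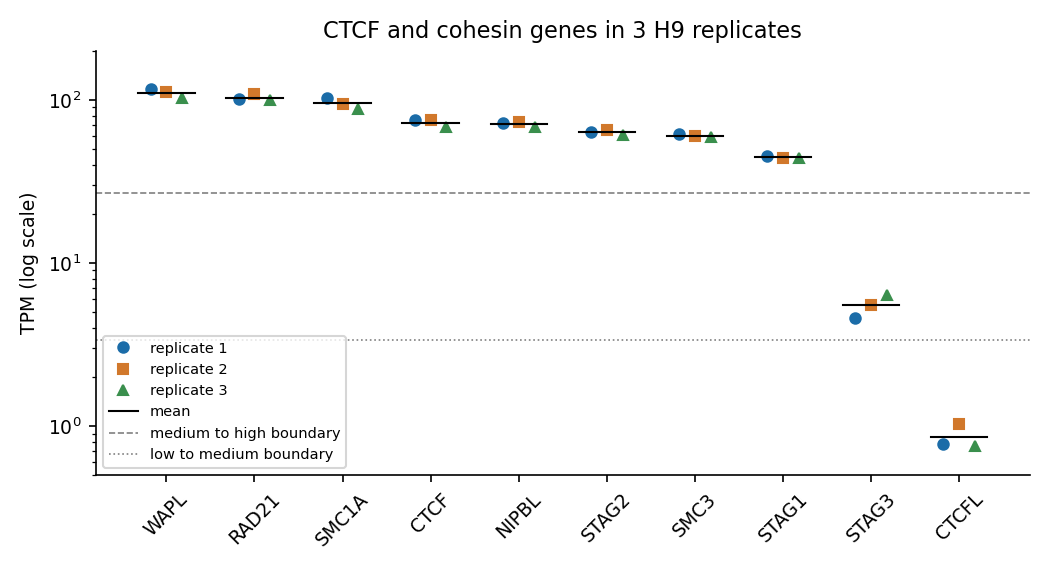
TPM on a log axis in each of the 3 replicates (points) and their mean (line) for the 10 genes, ordered by mean. Dashed and dotted lines mark the class boundaries of 27.0 and 3.35 TPM; 8 genes lie between 44.004 and 116 TPM in every replicate, and STAG3 and CTCFL lie apart below them.

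CTCF (ENSG00000102974, chromosome 16, 67562467 to 67639177) was measured at 74.7, 74.7 and 68.0 TPM in replicates 1, 2 and 3. These levels rest on 1966, 2285 and 1525 reads, and the mean was 72.5 ± 3.89 TPM (SD, n = 3). Replicate 3 was the lowest and the other replicates had nearly the same level. CTCFL (ENSG00000124092, chromosome 20, 57495966 to 57525652), also known as BORIS, shares the zinc finger region of CTCF and is known from male germ cells. It was measured at 0.774, 1.04 and 0.757 TPM, with a mean of 0.856 ± 0.156 TPM (SD, n = 3). Only 18, 28 and 15 reads lay on it. The exact 95% Poisson intervals, which cover counting error only, were 0.459 to 1.22, 0.689 to 1.498 and 0.424 to 1.25 TPM, so that they overlap in all replicates. CTCFL was thus detected in every replicate, at a level that does not separate the replicates at this depth. The ratio of CTCFL to CTCF was 0.0104, 0.0139 and 0.0111, with a mean of 0.0118 ± 0.00184 (SD, n = 3).

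The promoters of CTCF and CTCFL are shown because they lie at the ends of the range of CpG dinucleotides among the starts of the members, CTCF together with WAPL at the upper end, and the genes lie far apart in level. The set of RefSeq promoters used here (GRCh38.p14) holds 15 transcription starts for 9 of the 10 members and none for RAD21. In the 250 bases upstream of a start, CTCF had 39 CpG dinucleotides, and 2.65% of the 35116 promoters in the same set had at least as many. WAPL had the same number as CTCF. The start of CTCFL nearest to its annotated 5′ end had 2, a number that 85.3% of promoters reach, and its other starts had 7 and 15. The median over all promoters was 11. The sequences below run 5′ to 3′ with each CG in capitals and stop at the annotated 5′ end of the gene. That of CTCF is chr16:67562276-67562466 on the plus strand (191 bases), and that of CTCFL is chr20:57525653-57525902 on the minus strand (250 bases).
CTCF: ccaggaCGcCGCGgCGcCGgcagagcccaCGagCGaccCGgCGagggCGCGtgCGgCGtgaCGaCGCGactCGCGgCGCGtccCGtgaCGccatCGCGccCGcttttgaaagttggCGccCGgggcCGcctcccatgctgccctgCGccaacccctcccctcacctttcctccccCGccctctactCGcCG
CTCFL: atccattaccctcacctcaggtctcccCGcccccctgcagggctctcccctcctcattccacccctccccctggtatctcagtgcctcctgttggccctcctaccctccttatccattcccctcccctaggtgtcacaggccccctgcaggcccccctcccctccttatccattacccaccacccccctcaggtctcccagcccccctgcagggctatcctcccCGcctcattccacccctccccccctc
In these stretches CG occurs 32 times for CTCF and 2 times for CTCFL. The pentamer CCCTC, from which CTCF takes its name, was searched on both strands of the same 250 bases, where it occurred 4 times for CTCF and 11 times for that start of CTCFL. It was found at 12 of the 15 starts of the members and in 66.6% of all promoters. A match is a description of the letters and says nothing about binding. The high CpG count of CTCF is not shared by all members of the high class, as SMC3 had 17 and the starts of SMC1A had 15 and 24.

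The 3 subunits of the ring were all in the high class. SMC1A (ENSG00000072501, chromosome X, 53374149 to 53422728), an ATPase of the SMC family, was measured at 103, 94.1 and 88.0 TPM. Its mean was 95.01 ± 7.54 TPM (SD, n = 3), and its 3 replicates were the most spread in relative terms among the 8 genes of the high class, with a coefficient of variation of 7.93%. SMC3 (ENSG00000108055, chromosome 10, 110567684 to 110606048), the SMC partner of SMC1A, was measured at 61.3, 59.7 and 59.3 TPM. The mean of SMC3 was 60.1 ± 1.07 TPM (SD, n = 3), with a coefficient of variation of 1.79%, below the 2.04% that counting alone gives at this depth. RAD21 (ENSG00000164754, chromosome 8, 116845934 to 116874776), the kleisin that closes the ring and is cleaved in anaphase, was measured at 102, 108 and 99.4 TPM. It had the most reads of the 10 genes, 3806, 4697 and 3172, and a mean of 103 ± 4.43 TPM (SD, n = 3). On the scale of exon length, the levels of RAD21 and SMC1A overlapped between replicates, with a ratio of 1.09 ± 0.0877 (SD, n = 3), and SMC3 lay below both in every replicate. The ratio of SMC3 to SMC1A was 0.596, 0.635 and 0.674, with a mean of 0.635 ± 0.0391 (SD, n = 3).

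The order within the ring depended on the length by which counts were divided. The union of annotated exons is 15505 bp for SMC3, and its canonical transcript is 5522 bp. For RAD21 these lengths are 14382 and 3660 bp, whereas for SMC1A they are 10830 and 9710 bp. With the canonical transcript as length, an alternative chosen after seeing the data, RAD21 had 244 TPM, SMC3 had 102 TPM and SMC1A had 63.9 TPM, so that the ratio of SMC3 to SMC1A turned to 1.60. With the longest transcript as length it was 1.37. The counts do not tell which transcripts the reads came from, and the relative level of the ring subunits can be stated only for a given length.

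**Figure D2:**
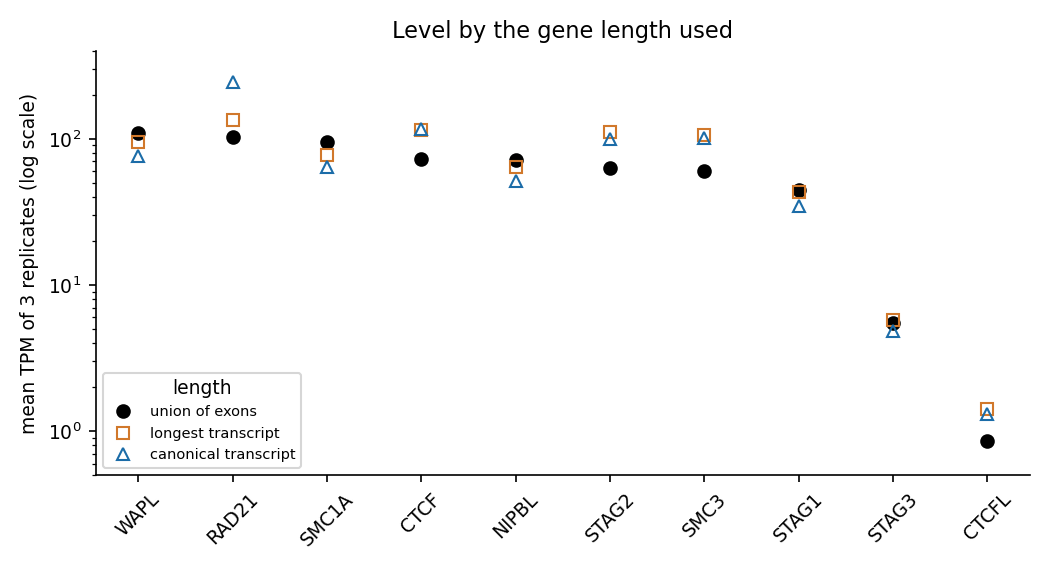
Mean TPM of 3 replicates on a log axis for each gene, with counts divided by the union of exons (filled circles), the longest transcript (squares) or the canonical transcript (triangles). RAD21 moves from 103 to 244 TPM and SMC1A from 95.01 to 63.9 TPM, whereas STAG3 and CTCFL stay lowest with all 3 lengths.

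The STAG subunits bind the ring and its partners, and a cohesin complex holds 1 of them. STAG2 (ENSG00000101972, chromosome X, 123960212 to 124422664) was measured at 63.9, 65.2 and 61.1 TPM, with a mean of 63.4 ± 2.098 TPM (SD, n = 3). STAG1 (ENSG00000118007, chromosome 3, 136336236 to 136752403) was measured at 45.4, 44.3 and 44.004 TPM, with a mean of 44.6 ± 0.741 TPM (SD, n = 3). STAG2 was above STAG1 in 3 of 3 replicates, and their ranges did not overlap. The ratio of STAG2 to STAG1 was 1.41, 1.47 and 1.39, with a mean of 1.42 ± 0.0439 (SD, n = 3). It was 2.84 with the canonical and 2.55 with the longest transcript as length, so that the direction held and the size did not. Both genes are long, spanning 462453 and 416168 bp, and the other members span between 28843 and 189645 bp.

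STAG3 (ENSG00000066923, chromosome 7, 100177563 to 100214387) is the STAG protein of meiotic cohesin. It was measured at 4.63, 5.54 and 6.38 TPM from 74, 103 and 87 reads, with a mean of 5.52 ± 0.877 TPM (SD, n = 3). The exact 95% Poisson intervals were 3.63 to 5.81, 4.52 to 6.72 and 5.11 to 7.87 TPM and overlapped. The level of STAG3 relative to STAG1 and STAG2 together was 0.0512 ± 0.00921 (SD, n = 3). Of the summed level of the 3 STAG genes by exon length, STAG2 had 55.9%, STAG1 had 39.3% and STAG3 had 4.87%. These shares depend on the length used, as the canonical transcript gave means of 98.9, 34.8 and 4.87 TPM in the same order. STAG3 is the member with the largest share of its exon length over exons of other genes. Of its exon length, 25.3% lies over exons of CASTOR3P on the opposite strand or of ENSG00000292277 on the same strand, and neither has a row in the deposited counts. Part of its transcript also matches copies elsewhere on chromosome 7 at 95% identity or more, which in the counted copy STAG3L4 is 531 bp. Reads were counted on the STAG3L pseudogenes, among them 39, 57 and 53 on STAG3L4 and 52, 75 and 52 on STAG3L3 in replicates 1, 2 and 3. These are of the same order as the reads on STAG3 itself. How the counting divided reads between STAG3 and its copies was not tested, and the level of STAG3 is uncertain for that reason.

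The low levels of CTCFL and STAG3 were set beside genes of germ cells and of meiotic cohesin. Of 8 germ cell genes (DAZL, DDX4, SYCP1, SYCP2, SYCP3, TEX11, MAEL and SPO11), 0 were in the high class, 1 was in the medium class, 6 in the low class and 1 was nonexpressed, and their median was 0.290 TPM. SYCP3, of the synaptonemal complex, was the highest, at 4.18 ± 1.40 TPM (SD, n = 3), medium by its mean but low in replicates 1 and 3. With the canonical transcript as length SYCP3 had 8.63 TPM, above STAG3 at 4.87 TPM. With the longest transcript it had 3.27 TPM, below STAG3 at 5.73 TPM. No read was counted on SPO11, the enzyme that makes meiotic breaks, and a count of 0 allows up to 3 counts in each library. Of the meiotic cohesin subunits, SMC1B had 6 reads and RAD21L1 had 1 read over all replicates. REC8, the meiotic kleisin, had 23.6, 22.4 and 25.6 TPM, with a mean of 23.9 ± 1.58 TPM (SD, n = 3), so that the meiotic subunits did not share 1 level. RAD21 was 4.34 ± 0.461 times as high as REC8 (SD, n = 3), on the scale of exon length, and 10.04 times with the canonical transcript as length.

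NIPBL (ENSG00000164190, chromosome 5, 36876769 to 37066413), the loader, was measured at 72.3, 73.1 and 67.9 TPM. Its mean was 71.1 ± 2.79 TPM (SD, n = 3). WAPL (ENSG00000062650, chromosome 10, 86435256 to 86521792), which opens the ring and frees cohesin from chromatin, was measured at 116, 112 and 102 TPM. Its mean of 110 ± 7.11 TPM (SD, n = 3) was the highest of the 10 genes by exon length. The ratio of NIPBL to WAPL was 0.623, 0.653 and 0.664, with a mean of 0.647 ± 0.0215 (SD, n = 3), and WAPL was above NIPBL in every replicate. The direction held with the canonical and the longest transcript as length, both of which gave 0.680. In reads, without division by length, the ratio was 1.12, since NIPBL has the longer exons (12519 against 7205 bp).

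In order of mean TPM the genes were WAPL, RAD21, SMC1A, CTCF, NIPBL, STAG2, SMC3, STAG1, STAG3 and CTCFL. WAPL and RAD21 differed by 7.09 TPM, about the larger of their SDs (7.11 TPM), and their ranges overlapped, with WAPL the higher in 3 of 3 replicates. RAD21 and SMC1A differed by 7.97 TPM, and SMC1A was the higher of them in replicate 1. The next step, from SMC1A to CTCF, was 22.5 TPM, and their ranges did not overlap. CTCF and NIPBL differed by 1.37 TPM, less than the SD of either, with CTCF the higher in 3 of 3. STAG2 was 7.73 TPM below NIPBL with no overlap. Between STAG2 and SMC3 the difference was 3.27 TPM and the ranges overlapped, with STAG2 the higher in each replicate. STAG1 lay 15.5 TPM below SMC3 and 8.08 times above STAG3, and STAG3 was 6.45 times as high as CTCFL, with no overlap at any of these steps. The positions of STAG1, STAG3 and CTCFL held with the canonical and the longest transcript as length. STAG3 was then 3.70 and 4.03 times as high as CTCFL. RAD21 was first and CTCF second with both, and WAPL moved to position 5. The steps from WAPL to RAD21, SMC1A to CTCF and NIPBL to STAG2 turned with both lengths, in every replicate, and that from STAG2 to SMC3 turned with the canonical transcript.

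**Figure D3:**
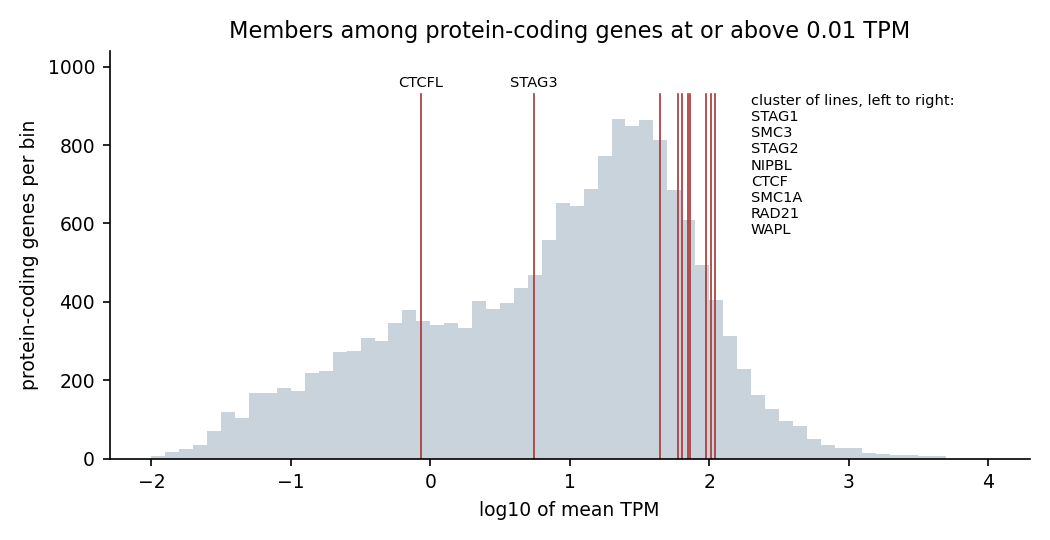
Number of protein-coding genes per bin of log10 mean TPM (bars, genes at or above 0.01 TPM), with the mean of each of the 10 genes as a vertical line. CTCFL and STAG3 lie at 0.856 and 5.52 TPM, and the other 8 lines form a cluster between 44.6 and 110 TPM on the right flank of the distribution.

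The genes whose levels were most like those of CTCF and RAD21 were found by the root mean square difference of log2 TPM over the 3 replicates. For CTCF these were LAP3, ARIH2 and OXSR1, with differences from 0.0135 to 0.0183. For RAD21 they were MELK, RFC1 and RMND5A, with differences from 0.0181 to 0.0241. With 3 replicates of 1 condition, this measures mostly that the levels are alike.

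The spread between replicates was compared with that from counting alone by an index of dispersion, the chi-square of the 3 counts against the library totals per degree of freedom, which is about 1 where only counting error acts. It was taken for the 8 members that had 100 counts or more in each replicate, and 6 of the 8 had an index above 1. Among all 9980 genes that reach this depth, 63.7% were above 1, so that the share among the members is near the background. The index was 11.8 for SMC1A, 5.76 for RAD21, 5.15 for WAPL, 3.05 for CTCF, 1.72 for NIPBL and 1.40 for STAG2. SMC3 and STAG1 had 0.317 and 0.106, and their replicates differed by less than counting error would give on average. Without replicate 3, 3 of 8 members were above 1, and the index of CTCF fell from 3.05 to 0.0198. RAD21 depended on replicate 2, without which its index was 0.000556. SMC1A and WAPL were above 1 whichever replicate was left out, at 2.89 to 22.0 and at 1.24 to 10.1.

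All 8 members with at least 100 counts had their lowest TPM in replicate 3, as had 47.5% of the 9946 of those 9980 genes that matched the annotation and so have a length and a GC content. Scaled by the library total alone (CPM), 5 of 8 were lowest there, against a background of 38.9%. With TMM or DESeq2 factors 8 of 8 were, against backgrounds of 49.4% and 50.9%. Most of these members are poor in GC: the GC content of the longest transcript was from 36.0% for RAD21 to 47.2% for SMC1A, and 6 of 8 were below 41.1%, the lower quartile of the 9946 genes. Across these genes, GC content correlated with the log2 ratio of CPM in replicate 3 over that in replicates 1 and 2 (Spearman's rho 0.407), as a description over genes that share the same libraries. Among genes below the lower quartile of GC content the median log2 ratio was -0.0425, and between that quartile and the median GC content it was -0.0443. From the median to the upper quartile it was -0.00642, and above the upper quartile it was 0.143. Most of the rise thus lay among genes above the upper quartile, where none of these members lie. The members lay between -0.133 for SMC1A and 0.00318 for STAG1, with a median of -0.0586. RAD21, with the lowest GC content of them, had -0.0463, and SMC1A, with the highest, had the lowest ratio. The part of GC content in these values was not tested. The shift of SMC1A is as large as some steps between neighbouring members, such as the 1.08-fold from RAD21 to SMC1A.

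**Figure D4:**
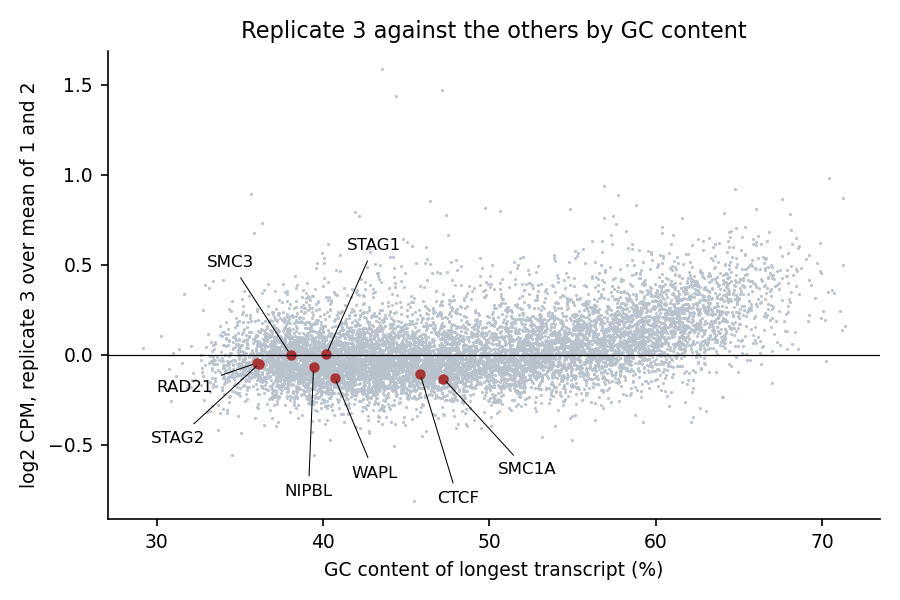
Log2 ratio of CPM in replicate 3 to the mean of replicates 1 and 2 against GC content of the longest transcript (%), for the 9946 annotated genes above the same depth minimum (grey) and the 8 members among them (red). The members lie in the left part, from 36.0% to 47.2% GC, between -0.133 and 0.00318 on the vertical axis, and the grey cloud rises towards high GC content.

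Exons shared with other genes limit some of these values, since the use of strand by the counting is not given in the sources used here. SMC3, NIPBL, WAPL and CTCFL share no exonic base with another annotated gene. STAG1 shares 21.2% of its exon length with PCCB, a carboxylase subunit gene on the opposite strand, on which 767, 920 and 683 reads were counted. CTCF shares 13.1% with ENSG00000237718, an antisense RNA with 5, 11 and 4 reads. RAD21 shares 5.89% with UTP23, RAD21-AS1 and MIR3610, STAG2 shares 1.68% and SMC1A 0.360%. SMC3 has a processed pseudogene, SMC3P1 on chromosome 2, that matches 735 bp of its transcript at 98.6% identity, and 4, 10 and 5 reads were counted on it. The reads on the antisense RNA of CTCF and on SMC3P1 are few beside those on CTCF and SMC3, whereas those on PCCB are of the same order as those on STAG1.

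The other genes that act on cohesin, proteins reported at loop anchors, and genes of the related SMC complexes were examined as a list of 32. Of these, 22 were in the high class, 7 in the medium and 3 in the low class, with a median of 45.2 TPM, beside 28.8% of protein-coding genes in the high class. MAU2, the partner of NIPBL in loading, had 21.8 ± 2.08 TPM (SD, n = 3) and was in the medium class, and it had 37.3 TPM with the longest transcript as length. Among regulators of release and cohesion, CDCA5 (sororin), which guards cohesin against WAPL, had 132 ± 5.23 TPM (SD, n = 3). PDS5A and PDS5B, which bind the ring and serve both release and cohesion, had 81.6 ± 1.29 and 37.3 ± 1.51 TPM (SD, n = 3). The replicates of PDS5A and PDS5B did not overlap. Of the acetyltransferases that act on SMC3, ESCO1 had 55.9 ± 4.03 TPM and ESCO2 had 18.7 ± 0.611 TPM (SD, n = 3), and HDAC8, which reverses the acetylation, had 2.56 ± 0.0775 TPM (SD, n = 3). The level of HDAC8 depended on the length used: its exon union is 22888 bp and its canonical transcript 1754 bp, with which it had 20.1 TPM and ESCO2 was 1.16 times as high. SGO1 and SGO2, which protect cohesin at centromeres, had 50.2 ± 1.82 and 48.1 ± 1.57 TPM (SD, n = 3), levels that overlapped between replicates and whose order turned with the other lengths. ESPL1 (separase), the protease that cuts RAD21, had 47.1 ± 0.325 TPM, and its inhibitor PTTG1 (securin) had 151 ± 5.19 TPM (SD, n = 3). Of the DNA-binding proteins, MAZ had 258 ± 1.59 TPM, YY1 had 77.7 ± 1.55 TPM and ZNF143 had 34.2 ± 3.29 TPM (SD, n = 3). By exon length YY1 was above CTCF in 3 of 3 replicates, but with the longest or the canonical transcript as length it was below CTCF in all of them. MAZ was above RAD21 by exon length and by the longest transcript, and below it with the canonical transcript (ratio 0.880).

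**Figure D5:**
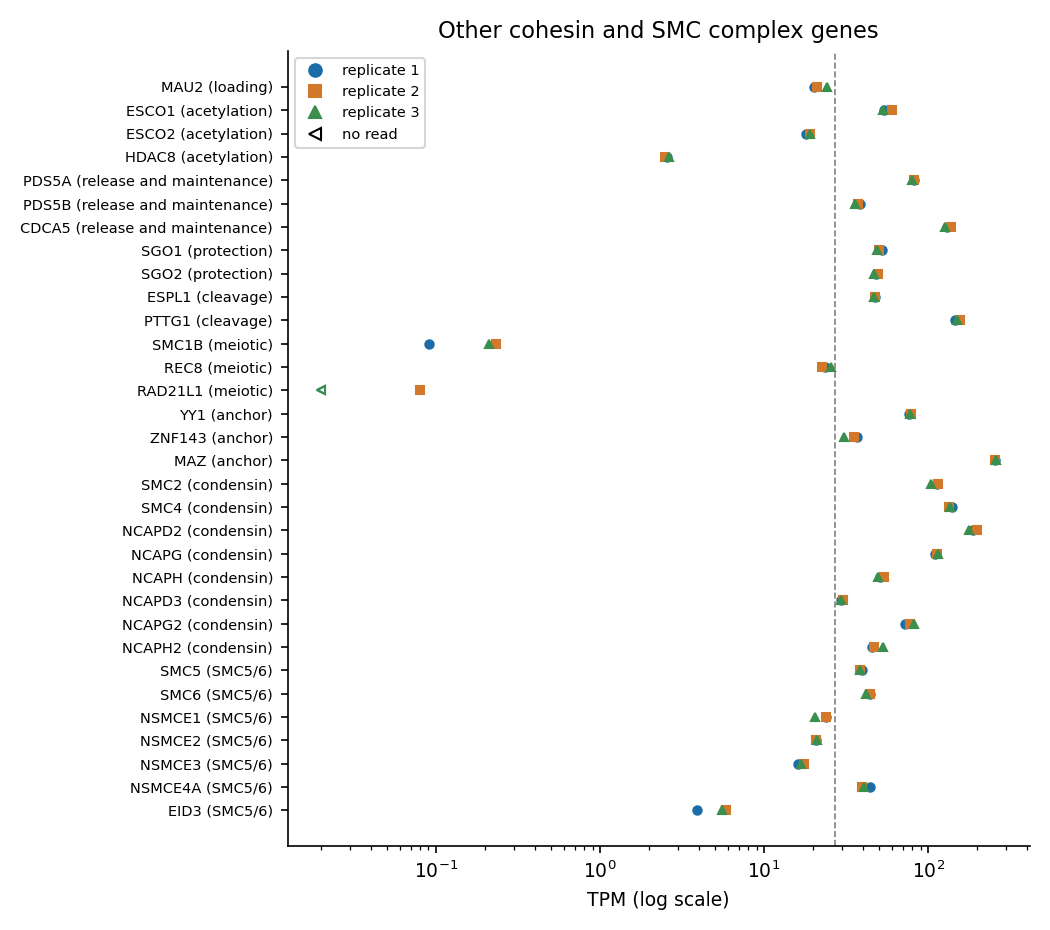
TPM on a log axis in each replicate (points, open triangles where no read was counted) for the 32 other genes of cohesin, condensin and SMC5/6 and proteins at loop anchors, with the role of each in brackets. The dashed line is the boundary of the high class, 27.0 TPM; 22 genes lie above it, and SMC1B and RAD21L1 lie below 1 TPM.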

How the data were processed

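Per the labels, RNA from 3 replicates of H9 cells was sequenced as ribosome-depleted total RNA libraries, of which each forms 1 sample. According to the study's methods and the submitters' processing notes, the authors trimmed reads with Trim Galore (0.4.4) and aligned them to GRCh38 with TopHat2 (2.1.1). The values deposited are raw counts of reads per Ensembl gene, not normalized. Which tool, annotation and strand setting served for counting is not given in the sources used here, and the TPM values that the authors made with Cufflinks (2.2.1) were not used. Totals were 10390984, 12024802 and 8655155 counts. Depth leaves a counting error of 1.62% to 3.33% for the 8 members in the high class.

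TPM was computed from the counts, the union of exons in GENCODE release 44 (98.1% of identifiers matched) and the sum over matched genes. Class boundaries follow the study's definition, over protein-coding genes. edgeR (4.0.16) gave TMM factors and DESeq2 (1.42.0) gave size factors for the alternatives. Near copies were sought with blastn (2.17.0, at least 95% identity over 200 bases), and coding sequences were aligned locally with Biopython (1.88). Poisson intervals are at 95% and a count of 0 allows 3 counts. PCR duplicates are not independent molecules, so intervals cover counting error only. Scripts ran in Python 3.11.15 with scipy 1.17.1, pandas 2.3.3 and numpy 2.4.6, and in R 4.3.3. The index of dispersion and the classes were tested on simulated data. No test between groups was possible with 1 condition.

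The members and lists were chosen with earlier results of these data known. Named genes are the members, the lists given in the text, genes sharing exons or sequence with a member and the 3 genes most like CTCF and RAD21. The STAG3L genes below the identity limit were named after their values were seen.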

Additional observations from a re-analysis of the deposited data

How the results depend on the processing

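The number of members in the high class was 8 under all alternatives, and 19 to 28 of the 32 other genes were in that class. The 19 came with genes below 1 TPM called nonexpressed, and the 28 with classes drawn over all genes. Both settings move the class boundaries. The share of protein-coding genes in the high class, 28.8% in the main setting, is not given for the alternatives. The levels depended mostly on gene length. The median of the members, 67.2 TPM, was 86.3 TPM with the longest transcript and 69.9 TPM with the canonical transcript as length, 213 as CPM, 70.1 TPM with mitochondrial genes left out of the total and 83.2 TPM with protein-coding genes only in the total, as a smaller total raises every TPM. With the longest transcript the ratios were 2.55 for STAG2 to STAG1, 1.37 for SMC3 to SMC1A, which turned its direction, 1.73 for RAD21 to SMC1A, 0.680 for NIPBL to WAPL, 0.857 for CTCF to RAD21 and 0.0373 for STAG3 to STAG1 plus STAG2. With the canonical transcript, chosen after seeing the data, they were 2.84, 1.60 (turned), 3.83, 0.680, 0.475 and 0.0365 in the same order, and without division by length 2.90, 0.909, 1.44, 1.12 (turned), 0.495 and 0.0249. These changes follow from the ratio of the lengths used. The ratio of CTCFL to CTCF moved by less than its SD. TMM and DESeq2 factors moved 0 of 10 members by more than their SD. Mitochondrial genes left out of the total moved 4, a total of protein-coding genes only moved 10 (all higher), the longest or the canonical transcript 9 each (5 higher and 4 lower). Leaving out single replicates moved 0, since a mean of 3 values cannot shift beyond 1 SD in that way. The number of members with an index of dispersion above 1, 6 of 8, was 3 to 6 with 1 replicate left out, and 7 with DESeq2 size factors. Depth limits CTCFL, with 15 to 28 reads, and STAG3. No paired analysis was possible because all replicates belong to a single condition.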

Other observations

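The other SMC complexes of the nucleus were described beside cohesin. All 8 condensin genes examined were in the high class of expression, which holds 28.8% of protein-coding genes. Their means by exon length were from 29.8 to 189 TPM, with a median of 94.0 TPM, and the lowest, NCAPD3, lay close to the class boundary of 27.0 TPM. NCAPD3 had 40.0 TPM with the longest transcript as length. With the canonical transcript it had 45.6 TPM, above NCAPH at 33.5 TPM and NCAPH2 at 39.1 TPM. SMC2 and SMC4, the ATPases that both condensins share, had 111 ± 6.35 and 137 ± 3.05 TPM (SD, n = 3), and SMC4 was the higher in all replicates with each length used. Of the subunits of condensin I, NCAPD2 had 189 ± 10.8 TPM, NCAPG had 113 ± 2.54 TPM and NCAPH had 51.1 ± 2.25 TPM (SD, n = 3). Of those of condensin II, NCAPG2 had 77.1 ± 4.47 TPM, NCAPH2 had 48.5 ± 4.27 TPM and NCAPD3 had 29.8 ± 0.604 TPM (SD, n = 3). NCAPD2 was above NCAPD3 in every replicate with exon union, longest and canonical transcript as length. NCAPG was above NCAPG2 by exon union and longest transcript, but below it in every replicate with the canonical transcript (ratio 0.884). The ranges of NCAPH and NCAPH2 overlapped, and their order turned with the other lengths. The SMC5/6 complex acts in repair and replication of damaged DNA. Of its 7 genes examined, 3 were in the high class, beside 28.8% of protein-coding genes, and their median was 22.8 TPM. Among them SMC6 had 43.4 ± 1.45 TPM, NSMCE4A had 41.5 ± 2.48 TPM and SMC5 had 38.9 ± 0.486 TPM (SD, n = 3), and EID3, a paralog of NSMCE4A, had 5.10 ± 1.03 TPM (SD, n = 3). Levels are by exon length, and no test was made between genes.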
